A study of Rattus norvegicus with 9 samples.

Results

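The genes described here are the collagens and the genes that fold, cross-link, bind or govern the collagen matrix, read in liver RNA of ovariectomised rats that received follicle-stimulating hormone (FSH) or vehicle. The members were all genes whose symbol has the form of a collagen chain (Col, a number, a and a number) and 27 named genes: the lysyl oxidases, the lysyl and prolyl hydroxylases of procollagen, the chaperone Serpinh1, tissue inhibitors of metalloproteinases, matrix glycoproteins and proteoglycans, and genes of matrix-producing cells. The count table held 69 of its 24496 genes under this rule, of which 43 were collagens and 26 were other genes. Tagln, which the rule also names, and the collagen gene Col1a2 were not analysed here. There were 9 libraries, each from 1 animal.

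All 9 animals were female wild-type Wistar rats kept on a western diet from 10 weeks of age and ovariectomised 6 weeks later. All were given degarelix, which blocks the pituitary receptor for gonadotropin-releasing hormone, and carried an osmotic pump, so neither surgery, diet nor degarelix differs between the groups. The pump held vehicle in 5 rats (Degarelix-only in the labels). In the other 4 it delivered FSH at a daily dose of 6 µg per kg (Degarelix+FSH). After 12 days of limited feeding and 7 days of free feeding, snap-frozen liver was taken at 19 weeks of age after a fast of 4 h. There was no group with ovaries or without degarelix. Library totals ran from 19295580 to 28672439 counts with vehicle and from 23430807 to 27008941 with FSH, and the members together took 0.324 to 0.385% of the counts. Levels are given as CPM, the counts of a gene per 1000000 counts of the scaled library total, and 1 read was worth 0.0353 to 0.0532 CPM.

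Collagen chains are folded in the endoplasmic reticulum, where prolyl hydroxylases (P4ha genes) stabilise the helix, lysyl hydroxylases (Plod genes) modify the residues later used for cross-links, and the chaperone HSP47 (Serpinh1) binds the finished helix. After export and trimming the molecules assemble into fibrils, networks or filaments, and lysyl oxidases (Lox genes) cross-link them outside the cell. In liver, the fibril-forming collagens come mainly from stellate cells and portal fibroblasts, which transforming growth factor beta (Tgfb1), platelet-derived growth factor and connective tissue growth factor (Ctgf) drive towards matrix production, while fibronectin (Fn1) and collagen XVIII (Col18a1) are also made by hepatocytes.

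Sequences before the gene start were taken from RefSeq on build GRCr8, which is not the build of the counts (rn6). Of the 69 members 53 matched a window there, 38 of them among the tested genes, with Ctgf found under its current symbol Ccn2. The window of Ctgf is shown because its libraries separated by group into ranges that did not overlap. Col3a1 separated too but had no window, and neither had Col1a1, Lox and Eln. It is the 250 bases before the start, chr1:22624615-22624864 on the minus strand, and capitals mark GGAATG, the core that TEAD factors bind, which occurs at 3 places starting 166, 101 and 92 bases before the start.
Ctgf: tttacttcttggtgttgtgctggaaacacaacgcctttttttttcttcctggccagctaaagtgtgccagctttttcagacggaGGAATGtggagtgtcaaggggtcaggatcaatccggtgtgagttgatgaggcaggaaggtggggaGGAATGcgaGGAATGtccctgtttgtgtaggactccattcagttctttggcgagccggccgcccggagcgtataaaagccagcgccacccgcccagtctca
At least 3 matches of GGAATG on either strand were found in 27 of all 33469 windows of this length (0.0807%), and at least 1 in 12.1%. Among the tested members, which have 40 windows since Col24a1 has 3, 9 windows held at least 1 match. They belong to Acta2, Col11a2, Col6a6, Ctgf, Loxl1, Loxl3, Timp1 and Col24a1, the last with more than 1 window. The estimated difference was upward with FSH for Col24a1 and Col6a6 and downward for the others. The windows of Col5a2, Col6a3, Col26a1 and Fbn1, which like Ctgf are named below as lower with FSH, held 0 matches.

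The type IV collagen genes lie head to head in pairs, and their start regions are shown because the members of a pair are compared below. Col4a1 and Col4a2 are separated by 76 bases, chr16:84885521-84885596, printed on the plus strand, in which Col4a1 is read, with the capitals marking the reverse complement of GGGCGG, the GC box.
Col4a1 to Col4a2: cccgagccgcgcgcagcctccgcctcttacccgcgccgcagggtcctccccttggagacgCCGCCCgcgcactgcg
Col4a3 and Col4a4 lie further apart, with 412 bases between their starts. Their windows of 250 bases, chr9:91323740-91323989 on the plus strand and chr9:91323578-91323827 on the minus strand, share 88 bases, which are in capitals in both and are the reverse complement of each other.
Col4a3: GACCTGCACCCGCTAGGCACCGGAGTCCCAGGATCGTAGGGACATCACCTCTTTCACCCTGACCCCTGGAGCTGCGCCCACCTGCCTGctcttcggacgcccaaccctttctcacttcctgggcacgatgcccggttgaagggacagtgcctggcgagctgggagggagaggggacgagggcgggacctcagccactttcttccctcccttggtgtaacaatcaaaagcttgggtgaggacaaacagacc
Col4a4: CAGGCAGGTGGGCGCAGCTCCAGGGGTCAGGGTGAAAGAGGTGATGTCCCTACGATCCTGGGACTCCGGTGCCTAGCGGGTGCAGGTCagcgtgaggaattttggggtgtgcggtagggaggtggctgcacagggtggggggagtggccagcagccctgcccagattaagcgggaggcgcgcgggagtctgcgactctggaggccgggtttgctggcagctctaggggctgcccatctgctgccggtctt
Between Col4a5 and Col4a6 there are 1414 bases, which are not printed. GGGCGG on either strand was found in 26 of the 40 windows of tested members and in 30.5% of all windows. The other motifs searched on both strands were TATAAA (2 of 40, against 12.9% of all windows), CCAAT (7 of 40, against 34.0%) and the CArG box of serum response factor (0 of 40, against 1.497%). The CArG pattern can contain TATAAA or CCAAT, and no other motif in this search contains another. These counts describe the letters in the windows and do not show binding.

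No member passed the threshold, an edgeR quasi-likelihood test with a Benjamini-Hochberg adjusted p (FDR) of 0.05 over all 11924 genes tested. In that test 0 of the 51 members that passed the filter on low counts were called, 0 lower (all genes 0.00839%) and 0 higher (all genes 0.0252%), against 0.0335% of all tested genes (4 genes). At an unadjusted p under 0.05 there were 9 members lower with FSH, against 5.14% of all genes, and 1 member higher, against 6.42%. These were Col1a1, Col3a1, Col5a2, Col6a3, Col26a1, Lox, Ctgf, Eln and Fbn1 on the lower side and Col13a1 on the higher side. DESeq2's Wald test called 2 members, Col3a1 and Lox, both lower (adjusted p = 0.0169 and 0.0498), against 0.582% of the genes it tested that were called lower. It called 0 members higher, against 0.933%, with Col13a1 and Fn1 at an unadjusted p under 0.05. The DESeq2 adjusted p of Ctgf was 0.0548, just over the threshold.

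The log2 fold change, FSH over vehicle, was below 0 in 37 of the 51 members (72.5%), against 49.5% of all genes, and its median was −0.13, against 0.0019 over all genes. The values ran from −1.87 (Lox) to 0.72 (Col22a1). In 2 members, Col3a1 and Ctgf, every FSH library lay below every vehicle library, against 1.92% of all genes, and in 0 members every FSH library lay above, against 2.19%. The members were chosen with earlier results on these animals known, so these counts describe the list and carry no test of it. In bulk liver RNA, fewer matrix-producing cells and less of their RNA per cell cannot be told apart. The filter left out 18 members, 17 collagens and P4ha3. Col2a1, Col9a1, Col10a1, Col19a1 and Col23a1 were listed at 0 in all libraries, which allows up to 3 counts or 0.106 to 0.159 CPM per library by counting error alone, and the other 13 had 2 to 64 counts over the 9 libraries. The 13 mitochondrially encoded genes were also listed at 0 throughout, so a 0 in this table does not show that a gene is silent.

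**Figure D1:**
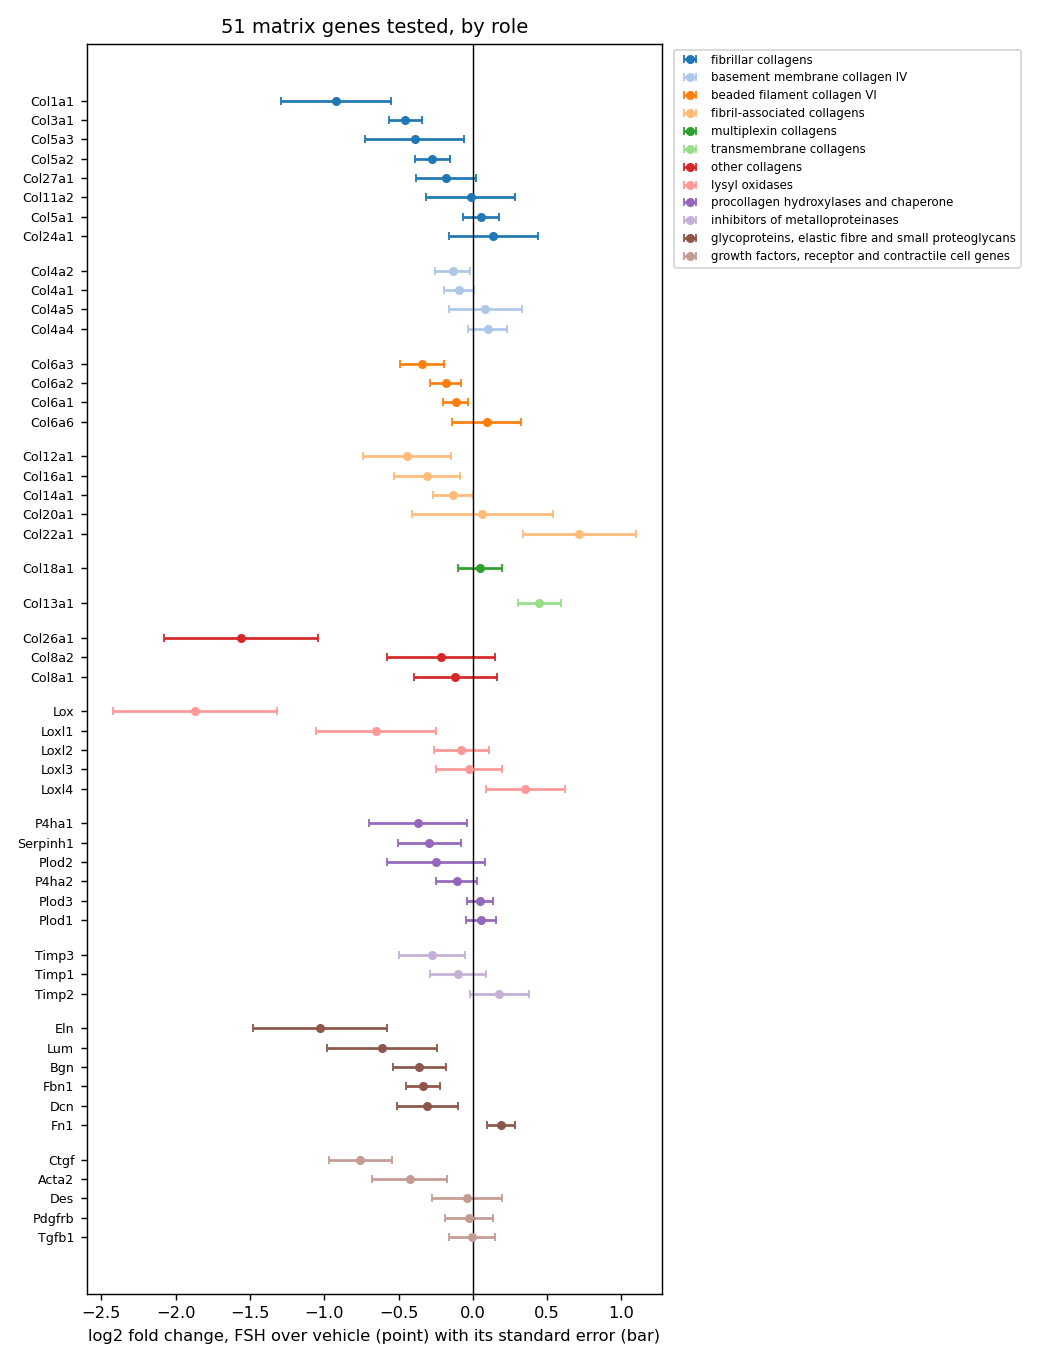
Log2 fold change of FSH over vehicle for the 51 tested members, grouped by role. Points are edgeR estimates and bars their standard errors; the lowest is Lox at −1.87 and the highest Col22a1 at 0.72, and 37 points lie below 0.

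Among the fibrillar collagens, which build the load-bearing fibrils, 6 of 8 tested genes had fold changes below 0, with a median of −0.23. Col3a1 (ENSRNOG00000003357), the chain of the thin reticular fibrils of liver, was measured at 161, 146, 141, 193 and 149 CPM in vehicle replicates 1 to 5 and 101, 123, 109 and 129 CPM in FSH replicates 1 to 4. All 4 FSH animals lay below all 5 vehicle animals, and vehicle replicate 4 was the highest of the 9. The group means were 115 ± 12.6 CPM with FSH (SD, n = 4) and 158 ± 21.01 CPM with vehicle (SD, n = 5), giving an edgeR log2 fold change −0.45 ± 0.11 (SE), adjusted p = 0.211. When single animals were left out, its fold change lay between −0.51 and −0.38.

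Col1a1 (ENSRNOG00000003897), a chain of the thick type I fibrils, was at 6.495, 8.97, 5.48, 19.8 and 7.87 CPM with vehicle and 3.14, 5.84, 5.28 and 6.35 CPM with FSH. The value of vehicle replicate 4 was the highest and that of FSH replicate 1 the lowest of the 9, and the groups overlapped. Its difference (edgeR log2 fold change −0.92 ± 0.37 (SE), adjusted p = 0.39) was −0.49 without vehicle replicate 4. Col5a2, which with Col5a1 forms the type V collagen that starts and limits fibrils, was at 9.59, 7.71, 11.9, 9.23 and 9.78 CPM with vehicle and 7.62, 8.32, 7.67 and 8.30 CPM with FSH, and the FSH values lay in a narrow band around the lower end of the vehicle range (edgeR log2 fold change −0.27 ± 0.12 (SE), adjusted p = 0.418). Its partner chain Col5a1 was at 16.2, 12.4, 16.3, 14.9 and 12.8 CPM with vehicle and 14.2, 17.98, 12.8 and 15.4 CPM with FSH, with overlapping groups and almost equal means (edgeR log2 fold change 0.05 ± 0.12 (SE), adjusted p = 0.9). The chains of this one molecule had fold changes of opposite sign, and that of Col5a1 turned below 0 without vehicle replicate 2 or FSH replicate 2. The other tested fibrillar genes, Col5a3, Col11a2, Col24a1 and Col27a1, had fold changes from −0.39 to 0.14 and unadjusted p-values of 0.263 or more.

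**Figure D2:**
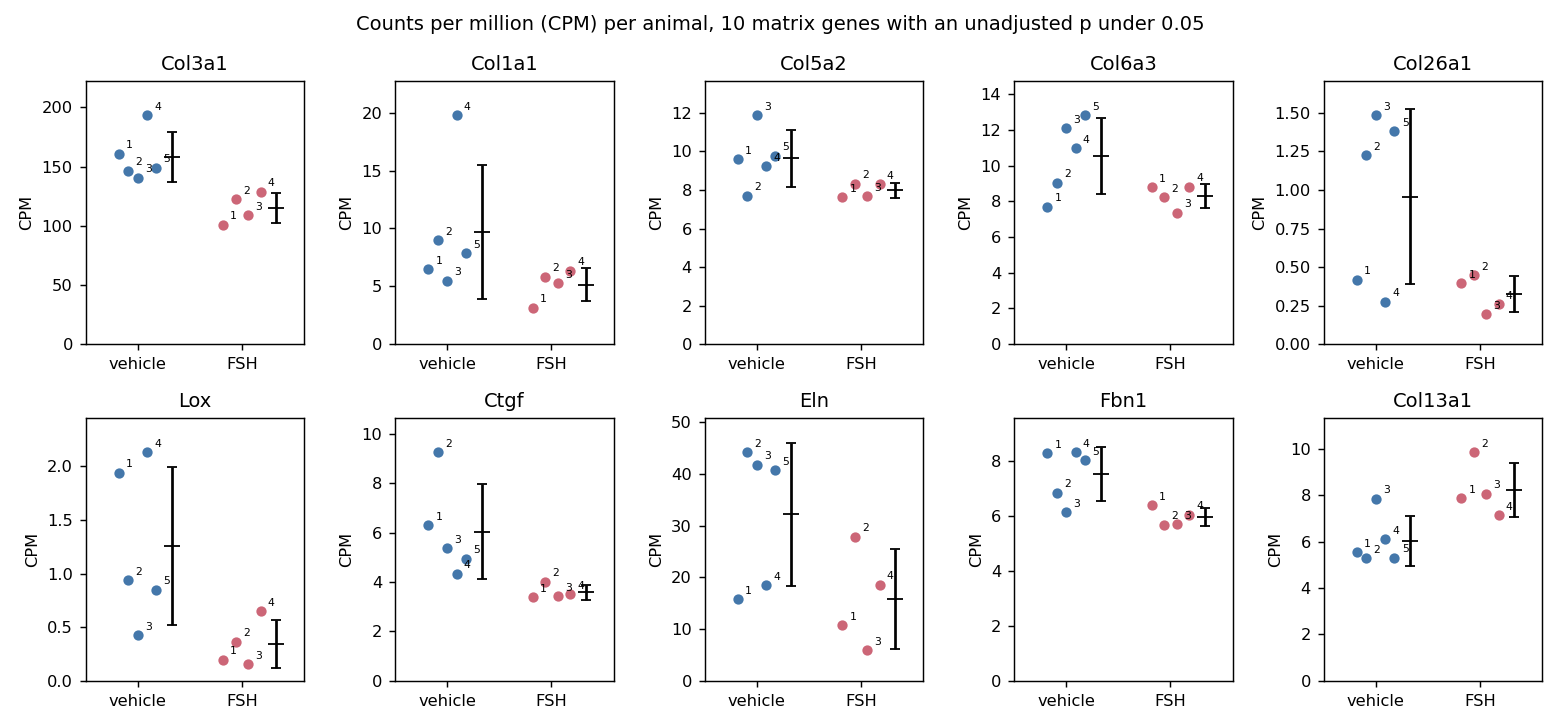
CPM of the 10 members with an unadjusted p under 0.05, with 1 point per animal numbered by replicate, and the mean ± SD of each group as a bar beside the points. In Col3a1 and Ctgf the FSH points lie below all vehicle points; in the other 8 genes the groups overlap, and vehicle replicate 4 is highest for Col1a1, Col3a1, Lox and Fbn1.

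Collagen IV forms the sheet of basement membranes, and 4 of its 6 chains were tested, 2 below and 2 above 0, with a median of −0.004. Col4a1 was at 31.5, 25.5, 25.9, 32.2 and 27.01 CPM with vehicle and 26.8, 29.9, 23.3 and 26.8 CPM with FSH. Col4a2 was at 18.1, 14.9, 15.02, 20.2 and 14.5 CPM with vehicle and 14.1, 17.3, 13.8 and 14.996 CPM with FSH. Both overlapped between the groups, with the same animal highest (vehicle replicate 4) and the same animal lowest (FSH replicate 3). Their fold changes were −0.09 (SE 0.10) and −0.14 (SE 0.12), with edgeR adjusted p = 0.771 and 0.709. With single animals left out they lay between −0.15 and −0.04 for Col4a1 and between −0.21 and −0.06 for Col4a2.

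The pair with 76 bases between its starts had a ratio of reads that varied little from animal to animal. Col4a1 had 1.74, 1.72, 1.72, 1.59 and 1.87 reads for each read of Col4a2 in the vehicle libraries and 1.90, 1.73, 1.68 and 1.78 in the FSH libraries, or 1.73 ± 0.0985 (SD, n = 5) and 1.77 ± 0.0927 (SD, n = 4). Since read counts grow with transcript length, which was not used here, such a ratio is compared between libraries only and is no ratio of levels. In the pair that shares 88 window bases, Col4a4 had 1363 reads and Col4a3 51 reads over all libraries. The ratio of Col4a4 to Col4a3 ran from 20.9 to 51 with vehicle and from 20.2 to 29.5 with FSH, and rests on 3 to 9 reads of Col4a3 per library. Col4a4 itself was at 6.03 and 6.47 CPM (edgeR log2 fold change 0.10 ± 0.13 (SE), adjusted p = 0.816). Col4a5 had 1029 reads and Col4a6 16 reads over all libraries, and the fold change of Col4a5 was 0.08 (SE 0.24). Whether the shared start region bears on these ratios was not tested.

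Collagen VI makes beaded filaments around cells from the chains of Col6a1, Col6a2 and Col6a3. Col6a1 was at 36.6, 38.8, 41.3, 38.9 and 32.7 CPM with vehicle and 36.8, 35.7, 30.7 and 36.04 CPM with FSH. Its partner Col6a2 was at 25.98, 34.2, 34.2, 35.4 and 29.3 CPM with vehicle and 24.9, 30.7, 27.6 and 29.3 CPM with FSH. The long chain Col6a3 was at 7.70, 9.04, 12.1, 10.97 and 12.8 CPM with vehicle and 8.78, 8.24, 7.37 and 8.82 CPM with FSH. In each of the 3 genes the groups overlapped, and the lowest animal was from the FSH group. The fold changes were −0.12 (SE 0.09), −0.18 (SE 0.11) and −0.34 (SE 0.15), and only Col6a3 had an unadjusted p under 0.05 among them (edgeR adjusted p = 0.411). That of Col6a1 was −0.06 without FSH replicate 3. Col6a1 had 1.19 ± 0.127 reads per read of Col6a2 with vehicle and 1.25 ± 0.163 with FSH, while Col3a1 had 19.1 ± 6.52 and 23.5 ± 5.80 reads per read of Col1a1. The first of these ratios spread less between animals than the second, in which vehicle replicate 4 was lowest (9.78) and FSH replicate 1 highest (32.2). Col6a6 was below 1 CPM in every library (fold change 0.09).

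**Figure D3:**
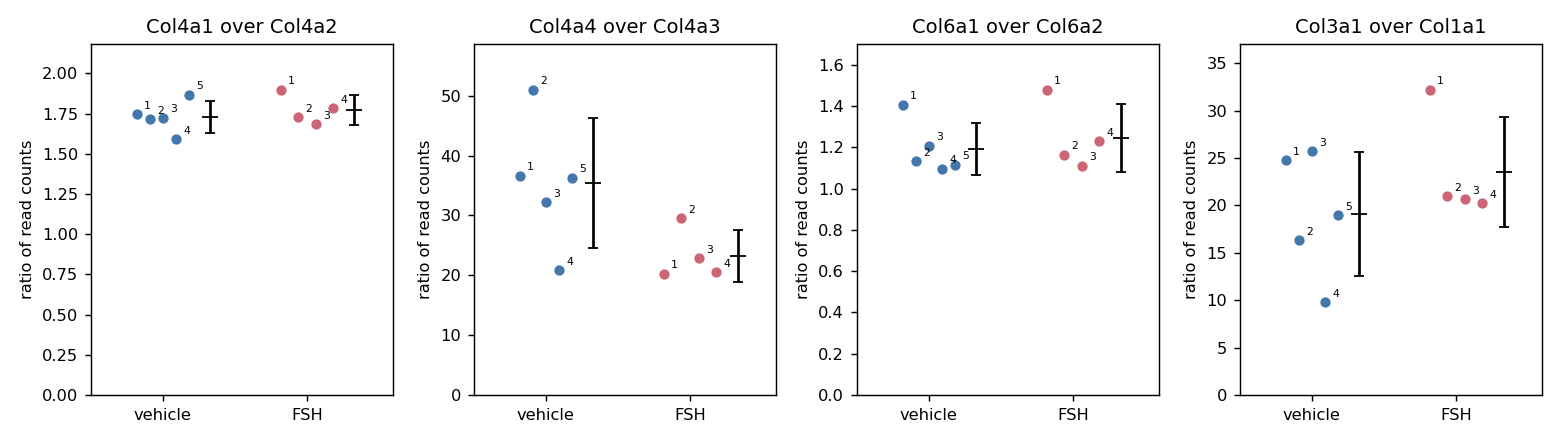
Ratio of read counts of 2 collagen genes in the same library, 1 point per animal numbered by replicate, with the mean ± SD of each group as a bar. The ratio of Col4a1 to Col4a2 lies between 1.59 and 1.90 in all 9 animals, while that of Col3a1 to Col1a1 runs from 9.78 to 32.2.

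Of the collagens that sit on fibrils or in other assemblies, Col14a1, a fibril-associated collagen, was at 25.9, 20.7, 26.6, 24.6 and 30.8 CPM with vehicle and 22.95, 18.3, 24.8 and 27.7 CPM with FSH, and the groups overlapped (edgeR log2 fold change −0.13 ± 0.14 (SE), adjusted p = 0.755). Its fold change lay between −0.22 and −0.04 when single animals were left out. Col18a1, the basement membrane collagen that carries the endostatin domain, had the most reads of all collagen members and was at 1008, 922, 1056, 621 and 751 CPM with vehicle and 929, 899, 939 and 833 CPM with FSH. The FSH animals lay close together inside the wide vehicle range (edgeR log2 fold change 0.05 ± 0.15 (SE), adjusted p = 0.934), and the sign changed without vehicle replicate 4 or 5. Col13a1, a transmembrane collagen of cell adhesion sites, was at 5.55, 5.29, 7.84, 6.12 and 5.32 CPM with vehicle and 7.86, 9.86, 8.06 and 7.13 CPM with FSH. Of the 5 vehicle animals, replicate 3 alone reached into the FSH range, and the fold change was 0.45 (SE 0.14, edgeR adjusted p = 0.317), between 0.34 and 0.56 when 1 animal was left out. Col26a1 was low throughout, at 0.419, 1.22, 1.48, 0.276 and 1.38 CPM with vehicle and 0.397, 0.446, 0.193 and 0.259 CPM with FSH, which are 5 to 42 reads per library. Vehicle replicates 2, 3 and 5 stood above all other animals, and vehicle replicates 1 and 4 fell among the FSH animals (edgeR log2 fold change −1.56 ± 0.52 (SE), adjusted p = 0.321). The remaining tested collagens, Col6a6 aside, were Col8a1, Col8a2, Col12a1, Col16a1, Col20a1 and Col22a1, with fold changes from −0.44 (Col12a1) to 0.72 (Col22a1) and unadjusted p-values of 0.087 or more. Col15a1, the other collagen with an endostatin-like domain, had 2 reads in all.

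Summed over all 43 collagen genes, the level was 1225 ± 29.9 CPM with FSH (SD, n = 4) and 1260.3 ± 163 CPM with vehicle (SD, n = 5), a ratio of 0.972, and most of these reads were from Col18a1. Without Col18a1 the sums were 382, 366, 382, 445 and 369 CPM with vehicle and 298, 348, 306 and 349 CPM with FSH. These did not overlap, and the ratio of the means was 0.837. The fibrillar collagens, with most reads from Col3a1, summed to 211, 197, 198, 253 and 195 CPM with vehicle and 138, 174, 150.4 and 179 CPM with FSH, a ratio of 0.761, again without overlap. Collagen IV (ratio 0.957) and collagen VI (ratio 0.892) overlapped between the groups. The sums are descriptions, with no test, and Col18a1 was set aside after its level was seen. Both sums that did not overlap hold Col3a1, which itself did not overlap and averaged 158 CPM with vehicle and 115 CPM with FSH. With the Col3a1 level of each animal taken off, the groups overlapped in both sums. The sums thus show no separation of the other collagens.

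**Figure D4:**
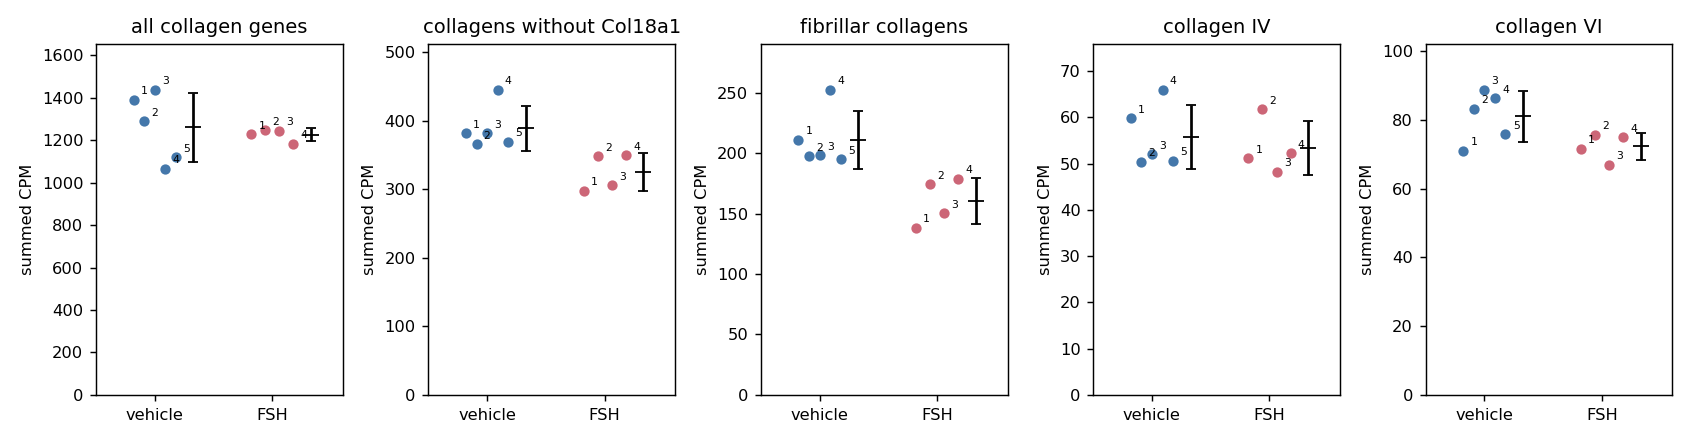
Summed CPM of collagen genes in each animal (points, numbered by replicate), with the mean ± SD of each group as a bar, for all collagens, for all but Col18a1, and for 3 classes. Without Col18a1, and with Col3a1 included, the vehicle animals lie between 366 and 445 CPM and the FSH animals between 298 and 349 CPM.

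Lysyl oxidases start the cross-links of collagen and elastin, and 4 of the 5 had fold changes below 0. Lox (ENSRNOG00000014426), the founding member, was at 1.94, 0.936, 0.424, 2.13 and 0.851 CPM in vehicle replicates 1 to 5 and 0.199, 0.365, 0.154 and 0.648 CPM in FSH replicates 1 to 4, from 12 to 54 reads in a vehicle library and 4 to 15 in an FSH library. FSH replicates 1, 2 and 3 lay below every vehicle animal, and FSH replicate 4 exceeded vehicle replicate 3 alone. The means were 0.342 ± 0.224 CPM (SD, n = 4) and 1.26 ± 0.740 CPM (SD, n = 5), giving an edgeR log2 fold change −1.87 ± 0.55 (SE), adjusted p = 0.275. Leaving out single animals gave fold changes from −2.36 to −1.58, and lowest edgeR adjusted p = 0.148.

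Loxl1, which acts mainly on elastic fibres, was at 0.786, 0.864, 0.742, 2.25 and 1.33 CPM with vehicle and 0.357, 1.06, 0.848 and 0.778 CPM with FSH, with vehicle replicate 4 highest and FSH replicate 1 lowest (edgeR log2 fold change −0.65 ± 0.40 (SE), adjusted p = 0.58). Leaving out vehicle replicate 4 gave −0.28, and leaving out FSH replicate 1 gave −0.41. Loxl2, at 2.10, 2.12, 2.30, 2.92 and 2.39 CPM with vehicle and 2.58, 1.79, 1.81 and 2.81 CPM with FSH, overlapped between the groups (edgeR log2 fold change −0.08 ± 0.18 (SE), adjusted p = 0.911), and its sign changed when vehicle replicate 4 or FSH replicates 2 or 3 were left out singly. Loxl3 had a fold change of −0.03 (SE 0.22). Loxl4, with the most reads of the family, was on the other side at 0.35 (SE 0.27), ranging over 13.5 to 35.4 CPM with vehicle and 20.7 to 36.8 CPM with FSH. Members of the family thus differed in sign, and of these only Lox had an unadjusted p under 0.05.

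Of the 6 tested enzymes and chaperones of procollagen folding, 4 had fold changes below 0 and none had an unadjusted p under 0.05. Serpinh1 (HSP47) was at 24.1, 37.6, 48.8, 50.001 and 38.1 CPM with vehicle and 25.1, 28.6, 34.7 and 41.5 CPM with FSH, a difference of −0.29 (SE 0.21, edgeR adjusted p = 0.639) that was −0.19 without FSH replicate 1. P4ha1, the catalytic subunit of prolyl hydroxylase, was at 24.1, 22.4, 51.2, 15.8 and 19.99 CPM with vehicle and 19.02, 18.02, 30.3 and 15.4 CPM with FSH. Vehicle replicate 3 stood apart at the top, and the fold change of −0.37 (SE 0.33) was 0.01 without it. The same animal was highest for the lysyl hydroxylase Plod1, at 62.8, 62.7, 87.3, 69.1 and 66.8 CPM with vehicle and 72.2, 74.7, 71.2 and 71.7 CPM with FSH (edgeR log2 fold change 0.05 ± 0.10 (SE), adjusted p = 0.874), and the fold change of Plod1 lay between 0.01 and 0.15 over the 9 omissions of 1 animal. P4ha2, Plod2 and Plod3 had fold changes of −0.11, −0.25 and 0.05, with unadjusted p-values of 0.451 or more.

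Of the inhibitors that restrain matrix metalloproteinases, Timp1 was at 2.67, 1.73, 2.08, 2.84 and 3.14 CPM with vehicle and 2.46, 2.23, 2.55 and 1.99 CPM with FSH. Timp2 was at 10.005, 7.31, 8.27, 11.5 and 8.88 CPM with vehicle and 8.30, 7.51, 14.1 and 11.7 CPM with FSH. Timp3, which stays bound to the matrix, was at 10.3, 16.9, 12.1, 10.7 and 23.2 CPM with vehicle and 12.03, 11.2, 11.9 and 13.1 CPM with FSH. All 3 overlapped between the groups. Fold changes were −0.10 (SE 0.19), 0.18 (SE 0.20) and −0.28 (SE 0.22), with edgeR adjusted p = 0.879, 0.774 and 0.681. Timp3 was high in vehicle replicates 2 and 5, and without replicate 5 its fold change was −0.05. Leaving out single animals gave Timp1 values between −0.21 and −0.008, and Timp2 turned to −0.01 without FSH replicate 3.

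The genes of elastic fibres and of fibronectin had fold changes of opposite sign, none past the threshold. Fbn1, the fibrillin of the microfibrils, was at 8.28, 6.84, 6.15, 8.33 and 8.03 CPM with vehicle and 6.39, 5.68, 5.71 and 6.05 CPM with FSH. Apart from the overlap of vehicle replicate 3 with FSH replicate 1, the FSH animals lay lowest (edgeR log2 fold change −0.33 ± 0.12 (SE), adjusted p = 0.337). Eln, elastin itself, spread widely at 15.8, 44.3, 41.8, 18.5 and 40.8 CPM with vehicle and 10.8, 27.9, 5.90 and 18.6 CPM with FSH, with vehicle replicates 1 and 4 inside the FSH range (edgeR log2 fold change −1.03 ± 0.45 (SE), adjusted p = 0.418). Fn1, fibronectin, was at 1468, 1696, 1825, 1688 and 1846 CPM with vehicle and 1964, 2098, 1935 and 1773 CPM with FSH, and FSH replicate 4 alone lay within the vehicle range (edgeR log2 fold change 0.19 ± 0.09 (SE), adjusted p = 0.485).

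The small leucine-rich proteoglycans coat collagen fibrils. Dcn (decorin) was at 6.13, 7.56, 8.30, 8.05 and 3.93 CPM with vehicle and 4.37, 5.72, 6.25 and 5.75 CPM with FSH, and its lowest animal was in the vehicle group (edgeR log2 fold change −0.31 ± 0.21 (SE), adjusted p = 0.61). Lum (lumican) was at 0.471, 1.22, 1.06, 2.13 and 1.38 CPM with vehicle and 0.675, 0.974, 1.08 and 0.562 CPM with FSH, highest in vehicle replicate 4, without which its fold change of −0.61 (SE 0.37) was −0.34. Bgn (biglycan) ranged over 138 to 256 CPM with vehicle and 127 to 177 CPM with FSH (edgeR log2 fold change −0.36 ± 0.18 (SE), adjusted p = 0.483).

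Among the signals and cell markers, Ctgf (ENSRNOG00000015036), a matricellular growth factor and target of TEAD and of TGF-beta, was at 6.29, 9.25, 5.37, 4.34 and 4.94 CPM in vehicle replicates 1 to 5 and 3.38, 4.02, 3.43 and 3.50 CPM in FSH replicates 1 to 4. The highest FSH animal lay just under the lowest vehicle animal, and the FSH animals spread little while vehicle replicate 2 was the highest. The means were 3.58 ± 0.295 CPM (SD, n = 4) and 6.04 ± 1.93 CPM (SD, n = 5), giving an edgeR log2 fold change −0.76 ± 0.21 (SE), adjusted p = 0.25. Its fold change was between −0.86 and −0.55 on leaving out 1 animal. Tgfb1, the ligand, was at 11.0002, 7.85, 9.51, 9.91 and 11.96 CPM with vehicle and 7.74, 10.1, 12.7 and 9.38 CPM with FSH (edgeR log2 fold change −0.0047 ± 0.16 (SE), adjusted p = 0.996). Pdgfrb, the receptor for platelet-derived growth factor on stellate cells and pericytes, was at 18.1, 11.7, 13.1, 16.2 and 19.3 CPM with vehicle and 14.8, 17.9, 12.3 and 16.4 CPM with FSH (edgeR log2 fold change −0.03 ± 0.16 (SE), adjusted p = 0.968). In both genes the groups overlapped and the sign changed when single animals were left out, as it did for Des. Acta2, the smooth muscle actin of contractile and activated cells, was at 6.18, 10.2, 5.16, 5.13 and 8.29 CPM with vehicle and 3.26, 6.05, 6.29 and 5.23 CPM with FSH (edgeR log2 fold change −0.42 ± 0.25 (SE), adjusted p = 0.565). Des, the intermediate filament desmin, was at 2.99, 4.07, 2.33, 2.49 and 3.51 CPM with vehicle and 2.07, 2.88, 4.24 and 2.77 CPM with FSH (edgeR log2 fold change −0.04 ± 0.23 (SE), adjusted p = 0.968). Without vehicle replicate 2 or FSH replicate 1, one at a time, the fold change of Acta2 was −0.25 and −0.25. For Acta2 the lowest animal was FSH replicate 1 and the highest vehicle replicate 2, and the groups overlapped as those of Des did.

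Read by animal, the members were not spread evenly. Vehicle replicate 4 had the highest value of all 9 libraries in 14 of the 51 tested members (27.5%, against 9.29% of all tested genes). They were Col1a1, Col3a1, Col4a1, Col4a2, Col4a4, Col6a2, Col16a1, Fbn1, Lox, Loxl1, Loxl2, Lum, Plod2 and Serpinh1. FSH replicate 1 had the lowest value in 14 members (27.5%, against 13.9% of all genes), Col1a1, Col3a1, Col5a2, Acta2 and Ctgf among them. Vehicle replicate 5 was highest in 10 members (19.6%, against 7.80%) and vehicle replicate 3 in 9 (17.6%, against 10.6%). Vehicle replicate 2 was lowest in 10 (19.6%, against 14.3%) and FSH replicate 3 in 9 (17.6%, against 12.3%). Within the vehicle group the median deviation of the members from the vehicle mean, on the scale of log2(CPM + 0.5), was between −0.12 (replicate 2) and 0.05 (replicate 4), and in the FSH animals between −0.23 (replicate 1) and −0.08 (replicate 4). FSH replicate 1 was also the library in which Alb took the largest share of counts, 19.4% against 10.54 to 16.7% in the others, and its part in the members' values was not tested. Without vehicle replicate 4 the median fold change of the members was −0.11 and the count of members with an unadjusted p under 0.05 was 7 (14% of those tested, against 10.7% of all genes). Without FSH replicate 1 they were −0.13 and 6 (11.8%, against 9.49% of all genes). The count was 6 without FSH replicate 3 too, where 9.15% of all genes had such a p. Without either of these animals the members' share was thus near that of all genes. Of members lower with FSH at that p there were 5, in place of 9, when FSH replicate 1, FSH replicate 3 or vehicle replicate 3 was left out. The share of all genes lower at that p was not taken for these omissions, so this count has no background beside it. The median was −0.22 without FSH replicate 4.

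**Figure D5:**
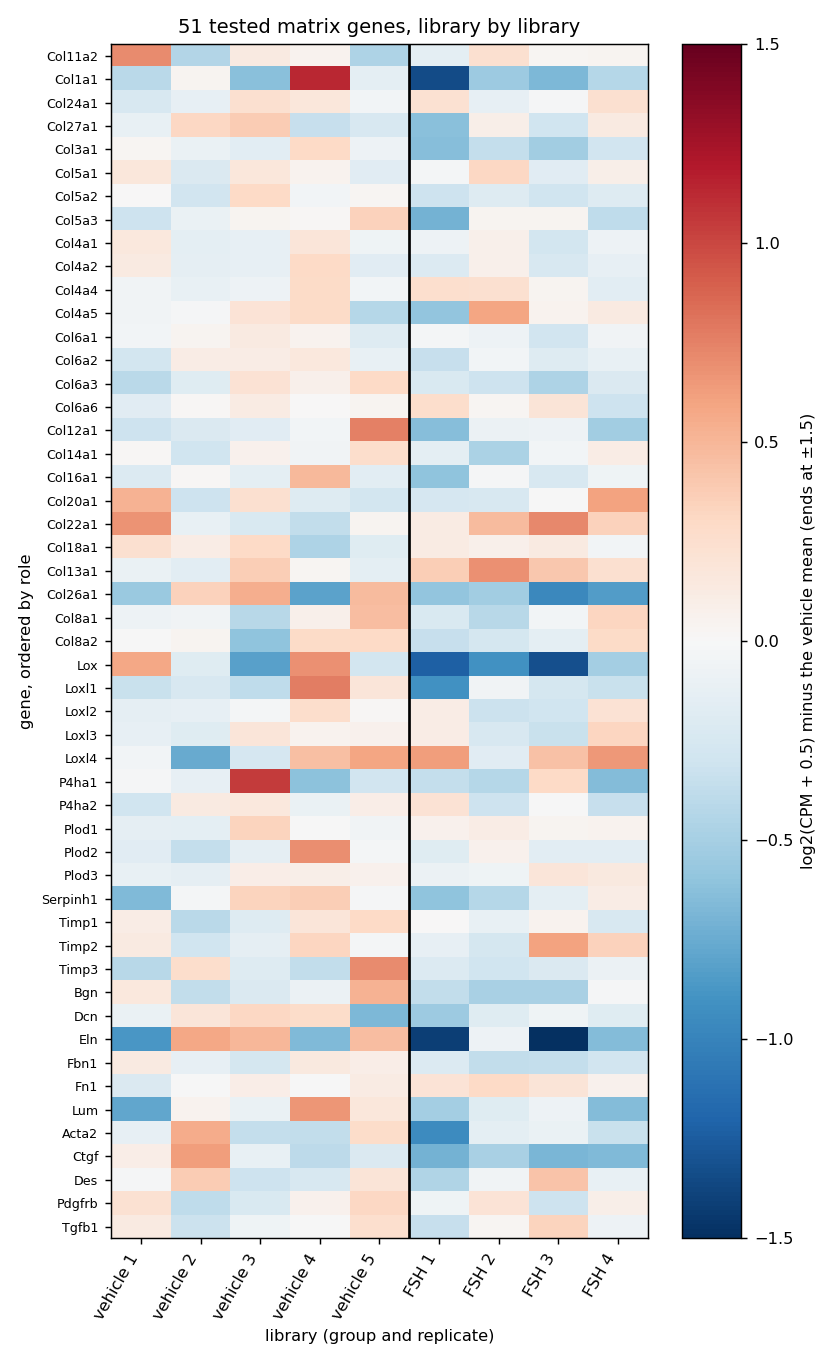
Deviation of each tested member (rows, ordered by role) in each library (columns) from the vehicle mean, as log2(CPM + 0.5), red above and blue below, with a line between the groups. Vehicle replicate 4 holds the highest value of 14 rows and FSH replicate 1 the lowest value of 14 rows.

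The other genes of matrix biology, taken from 7 lists that hold no member, gave 0 calls in either direction by edgeR at the adjusted threshold. The 2 genes with the smallest p in each list are named with their log2 fold changes. The counts at an unadjusted p under 0.05 are given for each list, beside 5.14% of all genes lower and 6.42% higher at that p. Of the genes for procollagen folding, trimming and export, 16 were tested, 12 with fold changes below 0 (median −0.05), with 1 lower and 0 higher at that p. Those named are Adamts2, which removes the amino-terminal propeptide, at −0.46 (SE 0.19), and Colgalt1, which glycosylates hydroxylysine, at −0.14 (SE 0.07). Of the matrix-degrading genes 12 of 23 were below 0 (median −0.05), with 2 lower and 1 higher at that p. The membrane metalloproteinase Mmp15 was at −0.47 (SE 0.14), all FSH animals below all vehicle animals, and the lysosomal protease Ctsl at 0.24 (SE 0.09). Laminins, nidogens, other glycoproteins and proteoglycans were below 0 in 21 of 29 (median −0.15), with 2 lower and 0 higher at that p. Nid2, a nidogen, was at −0.41 (SE 0.17) and Fbln5, an elastic fibre protein, at −0.46 (SE 0.19).

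In the TGF-beta list the groups did not overlap in 2 of 25 genes lower and 2 of 25 genes higher with FSH. Of all genes 1.92% lay below and 2.19% above vehicle without overlap. The list was divided, with 11 of 25 below 0 (median 0.09). At an unadjusted p under 0.05, 4 were lower and 5 higher, against 5.14% and 6.42% of all genes. Ski, a repressor of SMAD signalling, stood at 17.4, 16.96, 23.3, 21.1 and 21.7 CPM with vehicle and 27.3, 27.4, 24.7 and 29.1 CPM with FSH, all FSH animals above all vehicle animals (edgeR log2 fold change 0.43 ± 0.10 (SE), adjusted p = 0.204). Ltbp2, a binding protein of the latent TGF-beta family, was at −0.81 (SE 0.24). Platelet-derived growth factor genes were below 0 in 4 of 6 (median −0.17), with 1 lower and 0 higher at that p. The ligand Pdgfa was at −0.71 (SE 0.27) and Pdgfd at −0.54 (SE 0.28). Of the matrix receptors 6 of 9 were below 0 (median −0.03), with 0 lower and 1 higher at that p. The collagen-binding integrin chain Itga1 was at 22.6, 19.6, 22.3, 26.01 and 23.02 CPM with vehicle and 33.9, 26.8, 29.3 and 29.8 CPM with FSH, all FSH animals above all vehicle animals (edgeR log2 fold change 0.40 ± 0.09 (SE), adjusted p = 0.204), and the fibronectin receptor chain Itga5 at −0.18 (SE 0.13). Of all genes in the 7 lists DESeq2 called Ski and Itga1, both higher (adjusted p = 0.0341 and 0.0315), against 0.933% of all genes it tested. Contractile and YAP target genes were below 0 in 17 of 22 (median −0.15), with 2 lower and 1 higher at that p. Cyr61, a relative of Ctgf, was at −1.14 (SE 0.40) and Flna, an actin cross-linker, at −0.25 (SE 0.10), with all FSH animals below all vehicle animals for Flna.

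The tissue label was checked with hepatocyte markers (Alb, Ttr, Apoa1, Cyp2e1, Serpina1 and Tf), which together took 189256 to 234104 CPM with vehicle and 163683 to 271290.2 CPM with FSH. The cells that make and neighbour the matrix were read from 8 further marker lists, none of which holds a member and none of which had a marker at 0 in all libraries. Markers of quiescent stellate cells such as Lrat and Reln summed to 276 to 344 CPM with vehicle and 260.1 to 371 CPM with FSH (8 of 13 tested below 0, median −0.04). Portal fibroblast markers summed to 239.7 to 467 CPM with vehicle and 202 to 243 CPM with FSH (4 of 5 tested below 0, median −0.16), most of it Dpt, which was at 461 CPM in vehicle replicate 1. Smooth muscle markers summed to 10.46 to 20.5 CPM with vehicle and 9.01 to 14.9 CPM with FSH (4 of 5 tested below 0, median −0.33), and mesothelial markers to 10.3 to 13.9 CPM with vehicle and 8.06 to 13.6 CPM with FSH (4 of 4 tested below 0, median −0.22).

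Sinusoidal endothelial markers lay on the other side of 0, at 167 to 221 CPM with vehicle and 198 to 272 CPM with FSH (0 of 8 tested below 0, median 0.36), and vascular endothelial markers were at 112 to 152 CPM with vehicle and 127 to 155 CPM with FSH (2 of 5 tested below 0, median 0.19). Cholangiocyte markers summed to 11.9 to 20.7 CPM with vehicle and 9.33 to 17.7 CPM with FSH (3 of 5 tested below 0, median −0.35) and Kupffer cell markers to 153 to 467 CPM with vehicle and 294 to 410.3 CPM with FSH (4 of 6 tested below 0, median −0.06). At an unadjusted p under 0.05, 4 of the 8 sinusoidal markers were higher with FSH (Clec4g, Flt4, Oit3 and Stab1), against 6.42% of all genes. For Clec4g and Stab1 all FSH animals lay above all vehicle animals, against 2.19% of all genes. Clec4g (edgeR log2 fold change 0.61 ± 0.13 (SE), adjusted p = 0.19) was the one marker that DESeq2 called (adjusted p = 0.00849). DESeq2 called 0.933% of all genes it tested higher. At an unadjusted p under 0.05, 2 of the 5 vascular endothelial markers were higher. On the lower side were 1 portal fibroblast and 1 smooth muscle marker, of 5 tested in each list, against 5.14% of all genes. Of the stellate, mesothelial, cholangiocyte and Kupffer markers 0 passed. By edgeR's adjusted p 0 markers were called. In all 8 lists the groups' sums overlapped, in portal fibroblasts only where the top of the FSH range met the bottom of the vehicle range. The part of these cell types in the members' values was not tested.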

How the data were processed

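Strand-specific, paired-end messenger RNA libraries were made from snap-frozen liver, 1 per animal, per the labels' protocols. The deposited values are whole-number read counts per gene, not normalised. STAR, edgeR, DESeq2 and build rn6 appear in the submitters' processing notes. Tool roles and versions, annotation and strand handling are not given in the sources used.

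The counts of 24496 genes were filtered with edgeR's filterByExpr (minimum count 10), which left 11924 genes to test, and then scaled with TMM. They were fitted with edgeR 4.0.16 (R 4.3.3) by the quasi-likelihood F-test, FSH against vehicle without covariates. Benjamini-Hochberg adjustment was over all genes tested. The standard error is the size of the log2 fold change divided by the square root of F. The animals are separate, and the labels name no batch. The closest libraries of one group differed by a chi-square of 25.9 per degree of freedom, far over sampling noise.

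Alternatives were DESeq2 1.42.0, limma-voom (limma 3.58.1) with quality weights, other scalings and filters, 1 surrogate variable (sva 3.50.0), the replicate number as a block, an FDR of 0.10 and leaving out each animal. The members and lists were chosen with earlier results of these data known. Values in every library are given for members with an unadjusted p under 0.05 and for a fixed list of core members, and for each pathway list the 2 genes with the smallest p are named. The floors for genes at 0 cover counting error only, while the SD and the SE include variation between animals. Library totals of 19295580 to 28672439 counts make 1 read worth 0.0353 to 0.0532 CPM.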

Additional observations from a re-analysis of the deposited data

Results flagged for a closer look

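Within each group, every member named with its values in all libraries and each summed level was checked for a sample lying far from the others. Of 76 such groups of values 6 held one, where chance alone gives about 3.8. In each of the 6, it was the highest vehicle animal. Vehicle replicate 4 stood apart for Col1a1, at 19.8 CPM where the next vehicle animal had 8.97 CPM. The same animal stood apart for the summed collagens without Col18a1, at 445 CPM (next 382 CPM), for the summed fibrillar collagens, at 253 CPM (next 211 CPM), and for the summed lysyl oxidases without Loxl4, at 8.60 CPM (next 5.92 CPM). The sums share genes, so these are not separate events. Vehicle replicate 3 stood apart for P4ha1, at 51.2 CPM (next 24.1 CPM), and for Plod1, at 87.3 CPM (next 69.1 CPM).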

How the results depend on the processing

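No member was called under any edgeR or limma-voom setting, at an FDR of 0.10 in the edgeR fit, or by edgeR without any 1 animal; DESeq2 called 2 (Col3a1, log2 fold change of −0.46, and Lox, −1.89), and Ctgf had a DESeq2 adjusted p of 0.0548. The cause was not tested. Over all genes DESeq2 called 68 lower and 109 higher, against 1 and 3 by edgeR. The count of members with an unadjusted p under 0.05 was 10 of 51 (19.6%, against 11.6% of all genes). Under the other settings it lay between 8 and 12. It was 8 of 41 with 1 CPM in 4 libraries (19.5%, against 12.1%) and 12 of 51 with the replicate block (23.5%, against 9.79%). DESeq2 gave 12 of 64 (18.75%, against 9.05%), among them Col9a2, which the main filter left out. With 1 animal left out the count ran from 6 (without FSH replicate 1 or 3) to 13 (without vehicle replicate 1). As shares of the members tested, 6 and 13 are 11.8% and 26%, beside 9.49% (without FSH replicate 1), 9.15% (without FSH replicate 3) and 9.36% of all genes. For members lower with FSH the count without 1 animal ran from 5 to 11, with no share of all genes by direction taken for these fits. The median log2 fold change was −0.09 to −0.17 under the other settings and −0.10 to −0.22 with 1 animal left out. The ratio of summed collagens ran from 0.936 to 1.007 without 1 animal and was 0.963 with library totals, and without Col18a1 it ran from 0.816 to 0.868 and was 0.827. All 32 members named with every value kept the sign of the fold change and their side of the threshold under limma-voom, other size factors, library totals, no filter and 1 surrogate variable, as did the 29 that passed the filter of 1 CPM. The replicate numbers are not stated to pair animals. The correlations of deviations between animals with the same number ran from −0.052 to 0.043, and between those with unlike numbers from −0.175 to 0.134. Correlations this small cannot settle whether the numbers carry a weak pairing. With the replicate block the fold change turned to 0.0058 for Timp1, 0.0034 for Des, 0.062 for Pdgfrb and 0.055 for Tgfb1. With 1 animal left out the sign was not stable for Tgfb1 (−0.14 to 0.10), Pdgfrb (−0.12 to 0.062), Des (−0.26 to 0.10), Col5a1 (−0.044 to 0.12), Col18a1 (−0.059 to 0.12), Loxl2 (−0.20 to 0.014), P4ha1 (−0.62 to 0.010) and Timp2 (−0.0088 to 0.30). Depth limits Lox and Col26a1, with 4 to 54 and 5 to 42 reads per library, and the 18 members that were not tested.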
